A study of Mus musculus with 2 samples.

Results

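The interferon regulatory factors are a family of transcription factors, and 8 of them, Irf1, Irf2, Irf3, Irf4, Irf5, Irf7, Irf8 and Irf9, were followed in mouse T cell blasts. They were chosen by gene symbol, and every probe set annotated to 1 of these symbols alone was taken. This gave 14 probe sets of 45037 and 8 genes of 18193 named genes. The cells were 5cc7 T cells, whose antigen receptor is specific for a moth cytochrome c peptide. They had been stimulated in vitro with MCC, the name the labels give this peptide, and RNA was collected after 5 days. Polyadenylated RNA was converted to biotin-labelled cRNA and hybridised to 2 Affymetrix mouse 430 2.0 arrays, set 1 and set 2. Both arrays belong to 1 group, with no resting, unstimulated or interferon-treated cells beside them, and the labels do not say that the arrays came from separate cultures.

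All family members bind DNA through a related amino-terminal domain that contacts GAAA repeats, the core of the interferon-stimulated response element found in many antiviral genes. Irf3, Irf5 and Irf7 are switched on by phosphorylation when nucleic acid sensors or Toll-like receptors fire, and they drive transcription of interferon genes. Irf9 is part of the complex ISGF3, which carries the type I interferon signal to DNA, while Irf1 and Irf2 bind overlapping sites as activator and, mostly, repressor. Irf4 and Irf8 bind DNA weakly alone and act with partners such as PU.1, Spi-B or BATF and JUN. In T cells Irf4 is induced by receptor signalling and is needed for effector differentiation.

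The expression values were probe set intensities on a linear scale, in arbitrary units. Background was judged from 66 probe sets for 46 genes of liver, eye, pancreas and kidney, whose 95th percentile gave a bound of 53.4 (set 1) and 55.5 (set 2). Above background means brighter than this bound on the 2 arrays alike, and for a gene that any of its probe sets met this condition. By this rule all 8 members were above background, against 47.5% of all named genes. Of their 14 probe sets 12 were called, against 38.1% of all probe sets. The median over the 8 members of the brightest probe set was 302.8, and the same median over all named genes was 53.9. Since probes differ in how well they bind, the values of different members are not comparable as abundances. The labelled cell type was borne out by its markers, since all 12 measured T cell marker genes were above background, with intensities from 365 to 4671.

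**Figure D1:**
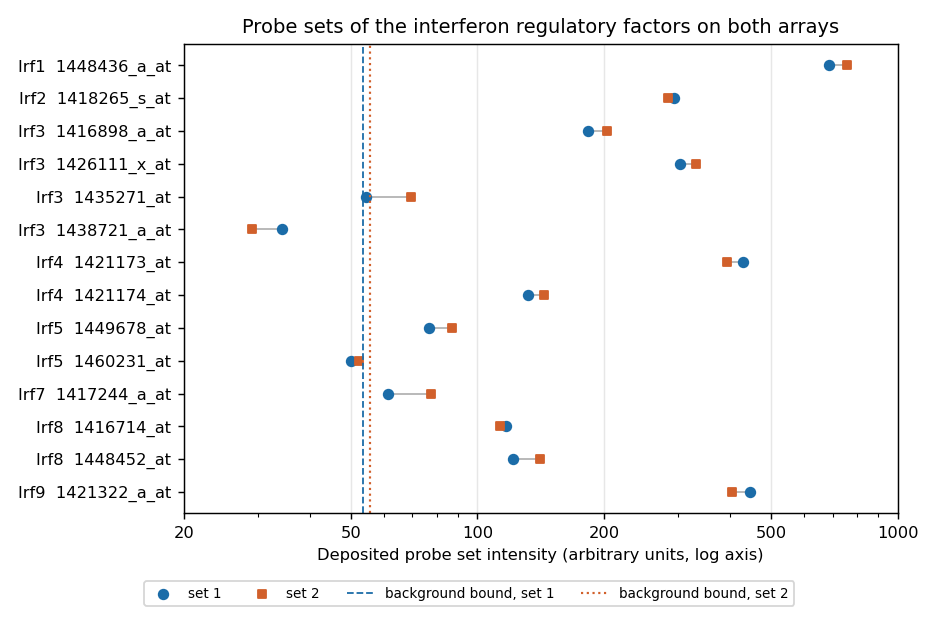
Intensity of the 14 probe sets of the 8 interferon regulatory factors on a log axis, with set 1 as circles and set 2 as squares; dashed and dotted lines mark the background bounds of 53.4 and 55.5. Probe sets for Irf1, Irf4 and Irf9 lie furthest to the right, and a probe set of Irf3 and another of Irf5 lie left of the bounds.

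The sequences before the gene starts were examined because several of these genes are themselves controlled by the pathways their products serve. RefSeq (GRCm38.p6) gave 11 promoter entries for the 8 members, and the 250 bases before each start were searched on both strands for 4 motifs. These were TTCNNNGAA, the palindrome of a gamma-activated site, a STAT family motif; GAAA followed by any 2 bases and GAAA again, a paired core of the interferon-stimulated response element; GGGAATNCC, an NF-kappaB type site; and TATAAA, the TATA box. The search found a match in 5 members, and the sequences below are those 5, shown because they hold the matches. They lie at chr11:53769764-53770013 on the plus strand for Irf1, chr8:46739495-46739744 on the plus strand for Irf2, chr8:120736108-120736357 on the plus strand for Irf8, chr13:30748983-30749232 on the plus strand for Irf4 and chr7:141266425-141266674 on the minus strand for Irf7. Each is given 5′ to 3′ along the gene's strand and ends at the base before the annotated start, with motif matches in capitals.

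Irf1: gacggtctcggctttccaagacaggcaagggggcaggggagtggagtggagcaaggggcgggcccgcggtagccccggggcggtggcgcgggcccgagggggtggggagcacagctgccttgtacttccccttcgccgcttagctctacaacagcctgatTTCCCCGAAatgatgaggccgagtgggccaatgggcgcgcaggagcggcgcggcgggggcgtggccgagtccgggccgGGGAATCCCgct
Irf2: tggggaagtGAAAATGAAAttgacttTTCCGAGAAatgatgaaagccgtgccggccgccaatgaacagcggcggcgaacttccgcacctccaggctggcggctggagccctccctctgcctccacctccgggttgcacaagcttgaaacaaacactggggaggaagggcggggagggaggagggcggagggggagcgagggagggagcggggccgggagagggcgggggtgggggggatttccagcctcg
Irf8: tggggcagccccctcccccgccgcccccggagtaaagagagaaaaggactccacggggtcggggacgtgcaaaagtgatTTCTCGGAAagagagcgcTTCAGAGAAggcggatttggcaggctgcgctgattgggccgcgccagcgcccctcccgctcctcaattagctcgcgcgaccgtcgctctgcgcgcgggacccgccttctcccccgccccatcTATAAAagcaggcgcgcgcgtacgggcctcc
Irf4: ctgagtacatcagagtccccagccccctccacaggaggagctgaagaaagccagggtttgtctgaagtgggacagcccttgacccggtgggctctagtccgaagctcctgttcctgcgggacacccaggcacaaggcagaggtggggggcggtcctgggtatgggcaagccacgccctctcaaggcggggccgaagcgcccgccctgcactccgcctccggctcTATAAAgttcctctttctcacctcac
Irf7: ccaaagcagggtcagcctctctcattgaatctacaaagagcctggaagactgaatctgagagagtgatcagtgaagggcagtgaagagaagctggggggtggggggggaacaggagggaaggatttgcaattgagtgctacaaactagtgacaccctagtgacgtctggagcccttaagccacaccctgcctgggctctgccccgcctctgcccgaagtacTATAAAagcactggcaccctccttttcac

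The STAT palindrome was found in 3 of the 8 members, Irf1, Irf2 and Irf8, and in 8.13% of all genes in the promoter table. In Irf1 it reads TTCCCCGAA and begins 90 bases before the start, and in Irf2 it reads TTCCGAGAA and begins 224 bases before. Irf8 holds 2 such matches, TTCTCGGAA at 171 bases and TTCAGAGAA at 153 bases. Irf2 also holds the paired GAAA core as GAAAATGAAA, which begins 241 bases before the start, and 3.46% of genes have this motif. Irf1 holds GGGAATCCC, which begins 12 bases before the start, and 0.973% of genes have this NF-kappaB type motif. A TATA box was found in 3 members, on the gene's strand and beginning 26 bases before the start in Irf4, 29 in Irf7 and 31 in Irf8. Anywhere in the window and on either strand, TATAAA was found in 14.3% of all genes. None of the 4 motifs was found in the windows of Irf3, Irf5 and Irf9. A match describes letters only, and occupancy of these sites was not measured.

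**Figure D2:**
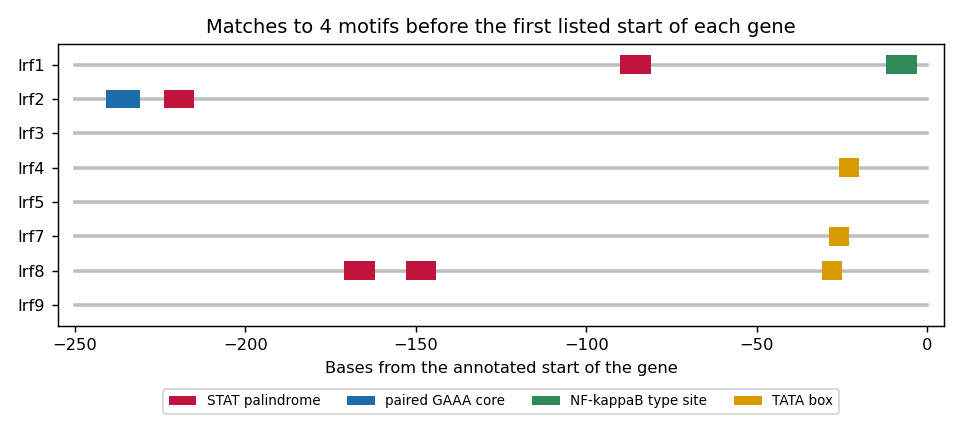
Position of the motif matches in the 250 bases before the first listed start of each of the 8 members, with distance from the start in bases on the horizontal axis and motifs by colour. The STAT palindromes of Irf1, Irf2 and Irf8 lie at different distances, from 90 to 224 bases, whereas the TATA boxes of Irf4, Irf7 and Irf8 lie between 26 and 31 bases.

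Among the factors of the interferon response, Irf1, an activator induced by interferon gamma, read 685.5 on set 1 and 759.3 on set 2, a mean of 722 ± 52.2 (SD, n = 2, as for all values below). Its single probe set was at least 12.8 times the bound on either array, and 95.9% of all probe sets were dimmer. Irf2, which competes with Irf1 for the same sites, read 293.5 and 284 (289 ± 6.72), at least 5.11 times the bound. The Irf2 probe set is of the kind marked _s_at, whose probes may match more than 1 transcript. Irf9, the DNA-binding subunit of ISGF3, read 445.2 and 403.8 (424.5 ± 29.3), at least 7.27 times the bound. For each of these 3 genes both arrays lay far from the bound, and each call rests on 1 probe set.

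Of the factors that induce interferon genes, Irf3 was measured by 4 probe sets that did not give the same result. The 1426111_x_at probe set read 302.7 and 331 (317 ± 20.01) and 1416898_a_at read 183.6 and 203.9 (194 ± 14.4). The former, marked _x_at, was the brightest, and whether its probes match other transcripts was not tested. The 1435271_at probe set read 54.4 and 69.4, which on set 1 was only 1.02 times the bound, and 1438721_a_at read 34.2 and 29 and was not above background. Irf3 was therefore detected by 3 of 4 probe sets, 1 of them barely.

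Irf7, which amplifies the interferon response and is itself induced by interferon, read 61.1 and 77.6 (69.4 ± 11.7) on its only probe set. This was 1.14 times the bound on set 1 and 1.40 times on set 2. Irf5, known for Toll-like receptor responses of myeloid and B cells, read 76.6 and 87 (81.8 ± 7.35) with 1449678_at, and 50 and 52.3 (51.2 ± 1.63) with 1460231_at, which was not above background. Only 1460231_at is annotated to a RefSeq transcript, and the Irf5 call rests on 1449678_at alone. The 1460231_at probe set lay just under the bounds, as 1435271_at of Irf3 lay just above them. Irf7 and Irf5 had the lowest brightest probe sets of the family, and their readings lay within the range of the off-tissue probe sets. The kidney gene Kap read 128.5 ± 1.56 and the pancreas gene Cela1 93.9 ± 21.1 on the same arrays. When the bound was taken from a second list of genes of other organs, 81.2 on set 1 and 88.1 on set 2, neither Irf5 nor Irf7 was above background, and 6 of 8 members were. With this bound 39.4% of all named genes were above background. In that second list the brightest probe sets, for Mbp and Tff1, read 493.5 ± 31.3 and 449.9 ± 9.90, which is above the mean readings of all members but Irf1. By the first list's bound only 2 of 8 Mbp probe sets were above background, and Tff1 has 1 probe set. Whether these T cells express Mbp or Tff1 was not tested, so these readings need not be background.

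Irf4, the member tied most closely to T cell receptor signalling, had both of its probe sets above background. The 1421173_at probe set read 427.9 and 392 (409.95 ± 25.4), at least 7.06 times the bound, and 1421174_at read 131.6 and 144.3 (138 ± 8.98), at least 2.47 times. Both are annotated to the same transcript record, and why their readings were unequal was not tested. Irf8, best known from myeloid cells, dendritic cells and B cells, read 117.2 and 112.9 (115 ± 3.04) with 1416714_at and 121.3 and 140.7 (131 ± 13.7) with 1448452_at. Its 2 probe sets gave like readings, at least 2.03 times the bound. The Irf8 levels were close to that of Kap, and with the bound at the brightest off-tissue probe set Irf8 was not above background, at 0.952 times that bound.

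Irf5, Irf7 and Irf8 had the lowest brightest probe sets of the 8 members. Among all named genes, 58.2% were dimmer than Irf5, 55.03% dimmer than Irf7 and 67.5% dimmer than Irf8. Markers of the cell types in which these genes are most often described were read on the same arrays. Of 23 measured myeloid markers 4 were above background, a share of 17.4%, against 47.5% of all named genes. By the same rule 7 of 45 measured genes of the second off-tissue list were above background, a share of 15.6%. The myeloid count was 1 with the bound at the 99th percentile, which 34.9% of all named genes exceeded. The 4 markers above background were Cebpb, Csf1r, Mpeg1 and Cybb. For Csf1r, 1 probe set read 57.3 on set 1 and 146.7 on set 2, and another read 103.4 and 100.4. The summed intensity of the list was 793 and 939. Adgre1, C1qa, C1qb, C1qc and Cd14 were among the myeloid markers not above background. Adgre1 read 39.7 on set 1 and 76.6 on set 2, over the bound on set 2 alone, and Cd14 read 28.3 and 45.2. C1qa, C1qb and C1qc were at 2.40 ± 0.424, 28.8 ± 0.495 and 2.15 ± 0.778. Of 15 dendritic cell markers 6 were above background, a share of 40% and near that of all named genes, with a summed intensity of 1190.2 and 1231. This count was 3 with the bound at the 99th percentile, against 34.9% of all named genes. The 6 markers included Itgae, Batf3, Cd83, Ccl22 and Tcf4, while Ccr9, Cd207, Cd209a, Clec10a and Flt3 were not above background. Itgae and Cd83 are also expressed by T cells, and Batf3 is also listed below as a partner of Irf4 in T cells. From which cells the Batf3, Ccl22 and Tcf4 readings came was not tested. B cell markers were above background in 10 of 15 cases, a share of 66.7% and higher than the 47.5% of all named genes. Their summed intensity was 4449 and 4003. Ighm alone gave 2580.6 and 2163 of these sums, with 5 of its 11 probe sets above background. Ms4a1 was at 377 ± 17.4 and Pou2af1 at 269.95 ± 9.69, whereas Cr2, Ebf1, Fcer2a, Fcrla and Pax5 were not above background. Of 10 NK cell markers 4 were, namely Klrd1, Gzma, Klrk1 and Klrc1, again a share of 40%. Cd244a, Eomes, Klra1, Klra7 and Klra8 were not above background, with means from 0.8 for Klra1 to 23.4 for Eomes. From which cells the readings of the 4 detected NK cell markers came was not tested. The part of B cells or other cells in the Irf4, Irf5 and Irf8 readings was not tested. In bulk RNA, fewer cells of a type and less RNA per cell cannot be told apart.

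The arrays gave like readings for every member. The log2 differences, set 2 minus set 1, were centred on their median of 0.03 over probe sets above background. They ran from -0.26 for 1438721_a_at of Irf3 to 0.33 for 1435271_at of Irf3, with 9 of 14 probe sets brighter on set 2 and a median of 0.11. None of the 14 differed by more than 1.5-fold, and the widest gap was 1.25-fold. Among all probe sets above background 2.85% exceeded 1.5-fold, and among all 45037 probe sets 29.2% did. The spread between arrays depends on intensity, so each member was set beside the probe sets of its own intensity class. The SD of the difference was 0.52 for intensities from 32 to 64, 0.33 from 64 to 128, 0.24 from 128 to 256, 0.19 from 256 to 512 and 0.17 from 512 to 1024. Every member probe set lay within 1 SD of its class, the widest being Irf7 with a difference of 0.32, or 0.959 SD. No member therefore differed between the arrays beyond what probe sets of like intensity showed. The share of all probe sets within 1 SD of their class was not computed.

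**Figure D3:**
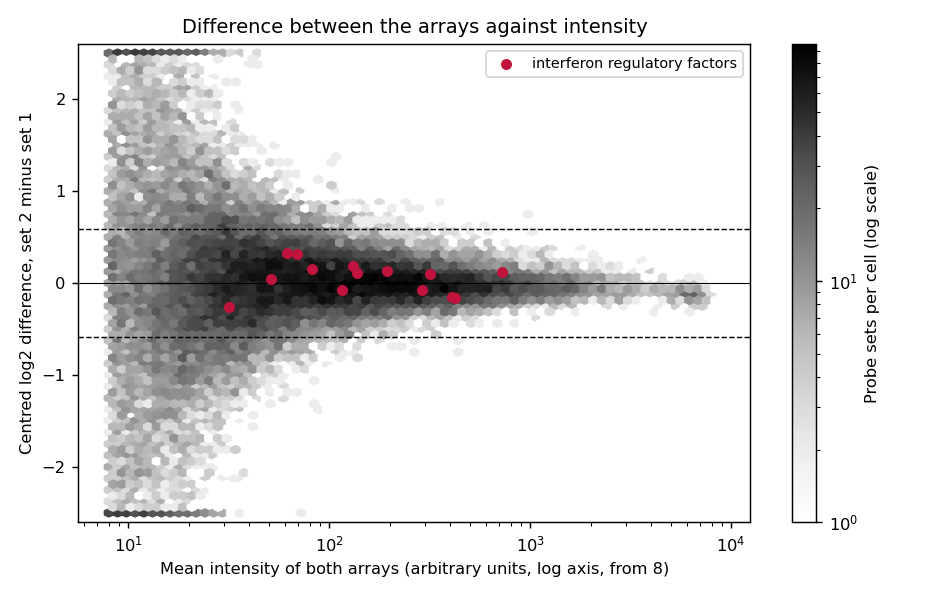
Centred log2 difference between the arrays, set 2 minus set 1, against mean intensity on a log axis, with all probe sets of mean intensity 8 or more as grey cells (differences beyond 2.5 are drawn at 2.5) and the 14 member probe sets in red. Dashed lines mark a 1.5-fold difference, and all 14 red points lie between them.

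Partner and cofactor genes of the family were above background in 20 of 22 cases, against 47.5% of all named genes. Of the AP-1 partners with which Irf4 binds composite sites in T cells, Batf read 432.4 and 357.9 (395 ± 52.7), Batf3 198 ± 32.5, Junb 477 ± 11.2 and Jund 882 ± 104. Jun read 60.0 ± 1.98, just over the bound, with 1 of 2 probe sets above it. Batf2 read 31.9 and 8.6 and was not above background. The ETS partners differed in call. Spi1, which encodes PU.1, read 58.4 and 53.6, above the bound on set 1 alone, so it was not called. Spib, a related factor of B cells and plasmacytoid dendritic cells, read 156.5 and 134.7 (146 ± 15.4). The Ikaros factors Ikzf1 and Ikzf3, which share sites with Irf4 and Irf8 in lymphocytes, were at 2113.5 ± 9.33 and 337 ± 0.849.

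Further partners were also detected. Nfatc1 and Nfatc2, calcium-driven factors that cooperate with Irf4, were at 622 ± 29.5 and 340.05 ± 3.04, although only 1 of 6 probe sets of Nfatc2 was above background. Stat3 was at 866 ± 53.2, Tcf3 (E2A) at 352 ± 14.1 and Bcl6, a repressor, at 95.4 ± 26.9. Def6, which is known to bind Irf4, and the related Swap70 were at 625 ± 74.4 and 304 ± 0.495. All 3 corepressor genes named for Irf2 were above background. Irf2bp2 was at 1709 ± 148 with 4 of 4 probe sets above background, Irf2bpl at 188 ± 50.7 with 2 of 3, and Irf2bp1 at 95.2 ± 5.16. The acetyltransferase coactivators Crebbp and Ep300, which join activated Irf3, were at 467 ± 22.1 and 464 ± 57.6.

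The interferon receptors and their signalling genes were above background in 11 of 12 cases, against 47.5% of all named genes. The type I receptor chains Ifnar1 and Ifnar2 were at 398 ± 32.5 and 219.65 ± 21.6. For the interferon gamma receptor, Ifngr1 was at 836 ± 83.2, but Ifngr2, its signalling chain, read 38.2 and 46.6 and was not above background on either of 2 probe sets. The receptor kinases Jak1, Jak2 and Tyk2 were at 2577 ± 123, 545 ± 24.7 and 244 ± 38.1. Stat2, the partner of Irf9 in ISGF3, read 145 and 101.6 (123 ± 30.7) with both probe sets above background. Of the feedback inhibitors, Ptpn2 was at 1538 ± 31.3 and Socs3 at 436 ± 5.30, while Socs1 at 66.3 ± 0.495 and Usp18 at 72.1 ± 13.9 lay close to the bound.

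**Figure D4:**
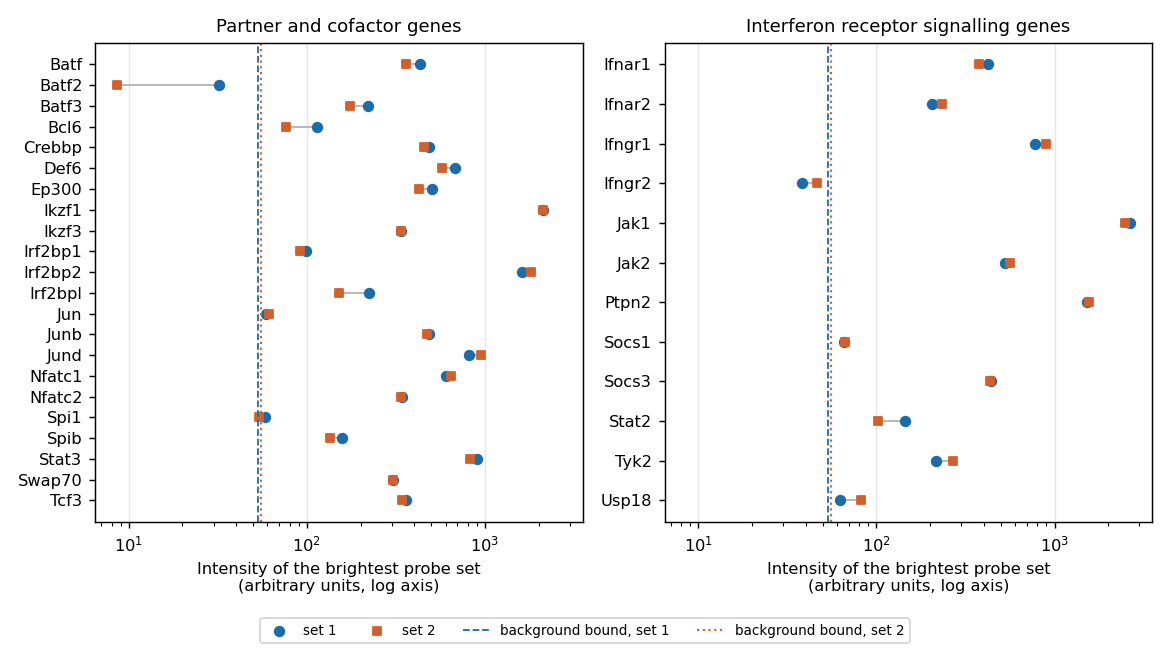
Intensity of the brightest probe set of each of 22 partner and cofactor genes (left) and 12 interferon receptor signalling genes (right), on log axes, with set 1 as circles, set 2 as squares and the background bounds as dashed and dotted lines. Batf2 and Spi1 on the left and Ifngr2 on the right are the genes not above background.

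Genes that switch on Irf3, Irf5 and Irf7 were above background in 17 of 20 cases, against 47.5% of all named genes. The kinases that phosphorylate Irf3 and Irf7, Tbk1 and Ikbke, were at 472 ± 11.95 and 595 ± 73.3, and their adaptor Azi2 at 430.45 ± 19.4. Sting1, the adaptor of cytosolic DNA sensing, was at 524 ± 87.3 and Myd88, the adaptor of Toll-like receptors, at 365 ± 15.1. The receptors Tlr3, Tlr4 and Tlr7 were not above background, at 8.50 ± 7.78, 25.9 ± 10.04 and 22.4 ± 4.38. The fourth receptor of the list, Tlr9, chosen after its value was seen, was above background at 72.5 ± 2.83. Many genes of this list had low readings, and the count was 10 with the bound at the 99th percentile of the off-tissue probe sets. That bound was exceeded by 34.9% of all named genes.

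Known targets of Irf1, most of them for antigen presentation and interferon-inducible GTPases, were above background in 20 of 23 cases. The share of all named genes was 47.5%. B2m was at 5448 ± 332, H2-D1 at 5314 ± 604, H2-K1 at 3574.5 ± 34.9, the immunoproteasome subunit gene Psmb8 at 2714 ± 70.1 and the proteasome activator gene Psme1 at 2064 ± 110.1. The H2-D1 and H2-K1 readings came from probe sets marked _x_at, and whether their probes match other transcripts was not tested. Ciita, Il15 and Nos2, which Irf1 drives mainly in other cell types, were not above background, at 42.7 ± 1.13, 13.4 ± 8.84 and 5.15 ± 0.212.

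Genes induced through Irf9 and ISGF3 were above background in 17 of 28 cases, against 47.5% of all named genes. The brightest were Ly6e at 3166 ± 105, Samhd1 at 2028 ± 173, Trim30a at 1628 ± 29.1, Ifi35 at 775 ± 20.3 and the RNA editing enzyme gene Adar at 657 ± 74.0. Cxcl10, Ifit1, Ifit3, Mx1 and Mx2, which interferon raises strongly in many cells, were not above background, with means from 3.4 for Mx2 to 35.4 for Ifit1. Other genes that interferon induces were, among them Ifit2 at 108.5 ± 2.12, Oas3 at 262 ± 6.72, Zbp1 at 223 ± 7.495, Cmpk2 at 111 ± 11.5 and Oasl1 at 73.3 ± 1.56, which were chosen after their values were seen.

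Among genes tied to Irf4 in T cells 21 of 27 were above background, against 47.5% of all named genes. The brightest were the glycolysis genes Ldha at 4823 ± 251 and Slc2a3 at 4190.4 ± 25.6, Ctla4 at 1836 ± 12.1, Icos at 1754 ± 102 and Hif1a at 1692 ± 10.04. Ahr, Foxp3, Il10, Il21 and Il4 were not above background, with means from 15.8 for Foxp3 to 48.4 for Il21. These shares describe which genes were detected on these arrays, and no link from a member to a target was tested.

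**Figure D5:**
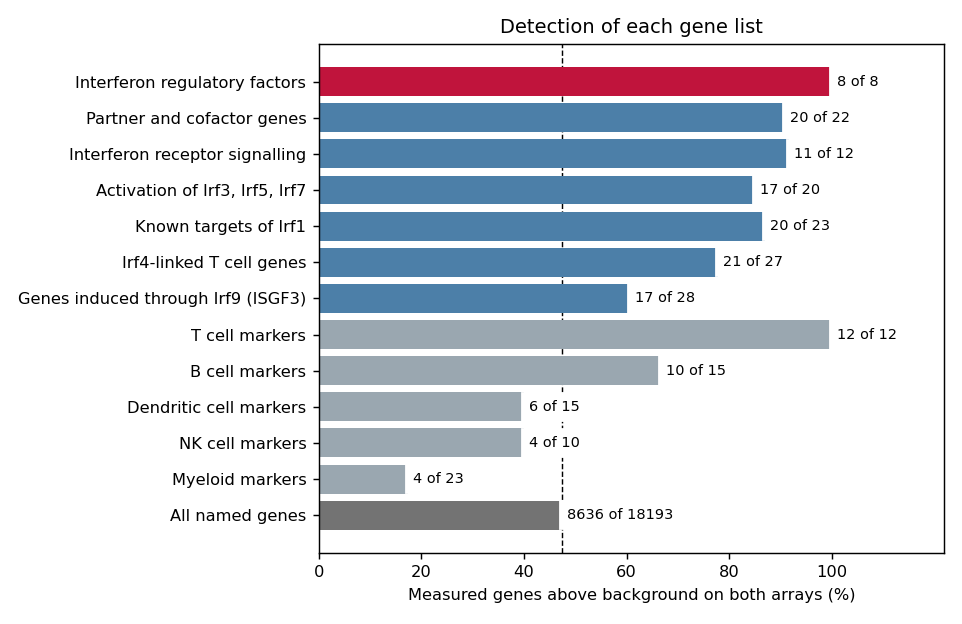
Share of measured genes above background on both arrays, in percent, for the 8 members (top), 6 lists of pathway genes, 5 lists of cell type markers and all named genes (bottom, and dashed line at 47.5%); the counts are beside the bars. All 8 members and all 12 T cell markers were above background, against 4 of 23 myeloid markers.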

How the data were processed

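The authors deposited 1 intensity per probe set for each array, and the values themselves show a linear scale. How the authors corrected background, summarised probes and scaled the arrays is not given in the sources used here, so it is unknown whether the arrays had been scaled to a common target. Median intensities of set 1 and set 2 were 36.4 and 37.9, with maxima of 8860.2 and 8718.8. Of 45101 probe sets, 64 manufacturer controls were left out. In the GEO platform annotation, 34958 probe sets had 1 symbol, 932 had several and 9211 were not listed. Probe sets with several symbols named no gene. By Entrez gene, 34741 of the 34945 that remained without controls matched RefSeq (GRCm38.p6), and 0 symbols changed.

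Intensities under 1 were set to 1 before log2. A gene's level was that of its brightest probe set. The lists held 325 different genes, of which 293 were matched to a probe set, 4 list names having been brought up to date. The members and lists were chosen with earlier results of these data known. Named genes were all members and, from each list, up to 5 of the brightest genes above background and up to 5 not above background in alphabetical order; any gene of the partner and receptor lists could be named. With 1 group of 2 arrays there was no test, and precision is limited by the number of arrays. Alternatives changed the bound, the level rule, the centring, the normalization, the floor and the arrays used. The calling and difference steps were tested on simulated data. Its bright probe sets lay far above the bound and its noise was equal at all intensities. Detection of genes close to the bound was therefore not checked. Python 3.11.15, numpy 2.4.6, pandas 2.3.3 and matplotlib 3.10.9 were used.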

Additional observations from a re-analysis of the deposited data

How the results depend on the processing

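The count of 8 members above background was also found with the bound at the 90th percentile of the off-tissue probe sets, at the median of all probe sets, on either array alone and when probe sets of a gene were reduced to their median. The share of all named genes above background was 53.6% with the 90th percentile and 55.4% with the median of all probe sets. It was 49.97% on set 1 alone and 50.08% on set 2 alone. The member count was 6 with a 99th percentile bound or a bound from the second off-tissue list, where Irf5 and Irf7 were lost. These 2 bounds were exceeded by 34.9% and 39.4% of all named genes. With the bound at the brightest off-tissue probe set of the first list, an alternative chosen after seeing the data, 5 members and 7 of their probe sets were above background, since Irf8 was lost as well. This bound was exceeded by 31.5% of all named genes and 22.4% of all probe sets. With the bound at the 99th percentile, 10 activation genes, 1 myeloid marker and 3 dendritic cell markers were above background, and with the brightest off-tissue probe set these counts were 9, 0 and 3. With the bound at the median of all probe sets 9 myeloid markers were. The other list counts stayed within 1.5 times their value. Without set 1 or set 2 in turn, the members above background numbered 8 and their probe sets 12, against 40.7% or 40.5% of all probe sets. No member probe set differed by more than 1.5-fold without centring, after quantile normalization, with a floor of 16 or with an offset of 50. Taking the median over probe sets gave 128 for Irf3, 274 for Irf4 and 66.5 for Irf5. No paired analysis was possible because there is 1 group.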

Other observations

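The genes that flank the members in the RefSeq gene table give a view of their surroundings. Of 16 protein-coding neighbours, 15 were measured and 11 were above background, against 47.5% of all named genes. Il5, a cytokine gene of Th2 cells next to Irf1, read 2.5 and 3.2, while Slc22a5 on the other side of Irf1 was at 165 ± 13.6. Cox4i1, a subunit gene of the respiratory chain next to Irf8, was at 2481 ± 47.7, and Exoc2, a vesicle tethering gene next to Irf4, was at 514 ± 62.4. Tnpo3, a nuclear import gene whose annotated span overlaps that of Irf5, was at 262 ± 33.0, with 3 of 3 probe sets above background. Which of the overlapping transcripts the Irf5 probe sets bind was not tested.

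Across the array, genes with TATAAA on either strand in the 250 bases before a start were above background in 34.1% of 1512 cases. The share was 49.0% of all 14449 genes with a promoter entry and a probe set. For the STAT palindrome the share was 47.7% of 1073 genes, for the paired GAAA core 51.2% of 453 and for the NF-kappaB type site 48.9% of 139. Genes are not replicates, and these shares are descriptions of these arrays.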
